A study of Mus musculus with 42 samples.

Results

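The 37 genes described here encode plasma proteins of the complement and coagulation systems, together with the proteases and inhibitors that dissolve or restrain the clot. They were chosen by symbol from what is known of these systems, by a rule that uses no measured value but was written with earlier results of these data known, and all 37 were listed in each of the 6 tables of liver RNA sequencing data. The 6 tables held 19758 gene names in all, of which 12762 were in every table. Each of the 37 passed the filter on low values, a mean normalised read count of at least 5, in every comparison.

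The livers came from 42 male mice on a C57BL/6J background, with 7 mice and 1 library per mouse in each of 6 groups. ChemR23 (gene Cmklr1) is a receptor for the lipid mediator resolvin E1 (RvE1), and it was knocked out by CRISPR/Cas9 genome editing in the KO mice, while the WT mice were their littermates. From 6 weeks of age the mice ate a diet with 10% (lean) or 60% (obese) of its energy from lard, for 15 weeks. The groups WT lean, WT obese, KO lean and KO obese then received intraperitoneal vehicle (PBS with ethanol) on 4 consecutive days, and the groups WT obese+RvE1 and KO obese+RvE1 received 300 ng of RvE1 instead. All livers were collected on day 5 after a fast of at least 4 h and were processed whole. Libraries held 15992556 to 43841273 read pairs on listed genes, with a median of 24298307. Cmklr1 lay between 30.1 and 148 normalised counts in the WT groups and between 5.08 and 24.9 in the KO groups, and the ranges did not overlap.

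Coagulation runs through a cascade of proteases, most of them made by hepatocytes, that ends when thrombin cuts fibrinogen into fibrin. Antithrombin, protein C and protein S restrain the cascade, and plasmin dissolves the clot under the control of antiplasmin. Complement is a second cascade of plasma proteins, started by antibody, by lectins that bind sugars on microbes, or by slow spontaneous turnover of C3, and it ends in a pore, the membrane attack complex, built from C5 to C9. The liver is the main source of both systems, and several of the genes, fibrinogen among them, are induced by interleukin 6 in the acute phase response. In whole liver, fewer cells of a type and less RNA per cell cannot be told apart. The 6 hepatocyte markers examined, among them albumin and transthyretin, were detected in every library, with summed normalised counts between 744243 and 1875310, and 0 of 6 passed the test in any comparison.

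The members took 2.18 to 4.41% of the read pairs of a mouse, with a median of 3.23%. The 3 fibrinogen chains alone took 0.709 to 2.24%, with a median of 1.40%. Levels between genes were compared per kb of exon, in the WT lean mice of the table that also held WT obese. Fga, the fibrinogen alpha chain, had the highest mean at 50440 ± 6549 normalised counts per kb (SD, n = 7). Fgg, the gamma chain, followed at 44560 ± 4043 and Fgb, the beta chain, at 33040 ± 4227. Neighbours among these chains overlapped, while every Fgb value lay above every value of the next gene. That gene was C3, the central complement protein, at 12490 ± 1986 normalised counts per kb. Plg, the precursor of plasmin, followed at 9942 ± 991, and its range overlapped that of C3.

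At the other end, Masp1, a protease of the lectin pathway, had a mean of 98.0 ± 21.7 normalised counts per kb. It lay below all others, beneath C2 at 350 ± 73.8, and the ratio of the highest to the lowest mean was 515. On counts not divided by length, F11 had a lower mean than Masp1, at 912 against 963. Serpinc1, with 8.546 kb of exon, then had a higher mean than Plg, at 41382 against 36897, whereas per kb it had rank 13. Further gaps in the order were rare: of the other neighbours below Fgb, only F7 and Masp2 had ranges that did not overlap. In WT lean liver 5 members were among the 100 highest genes of 13872 with a length, and all 37 lay above the median gene.

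**Figure D1:**
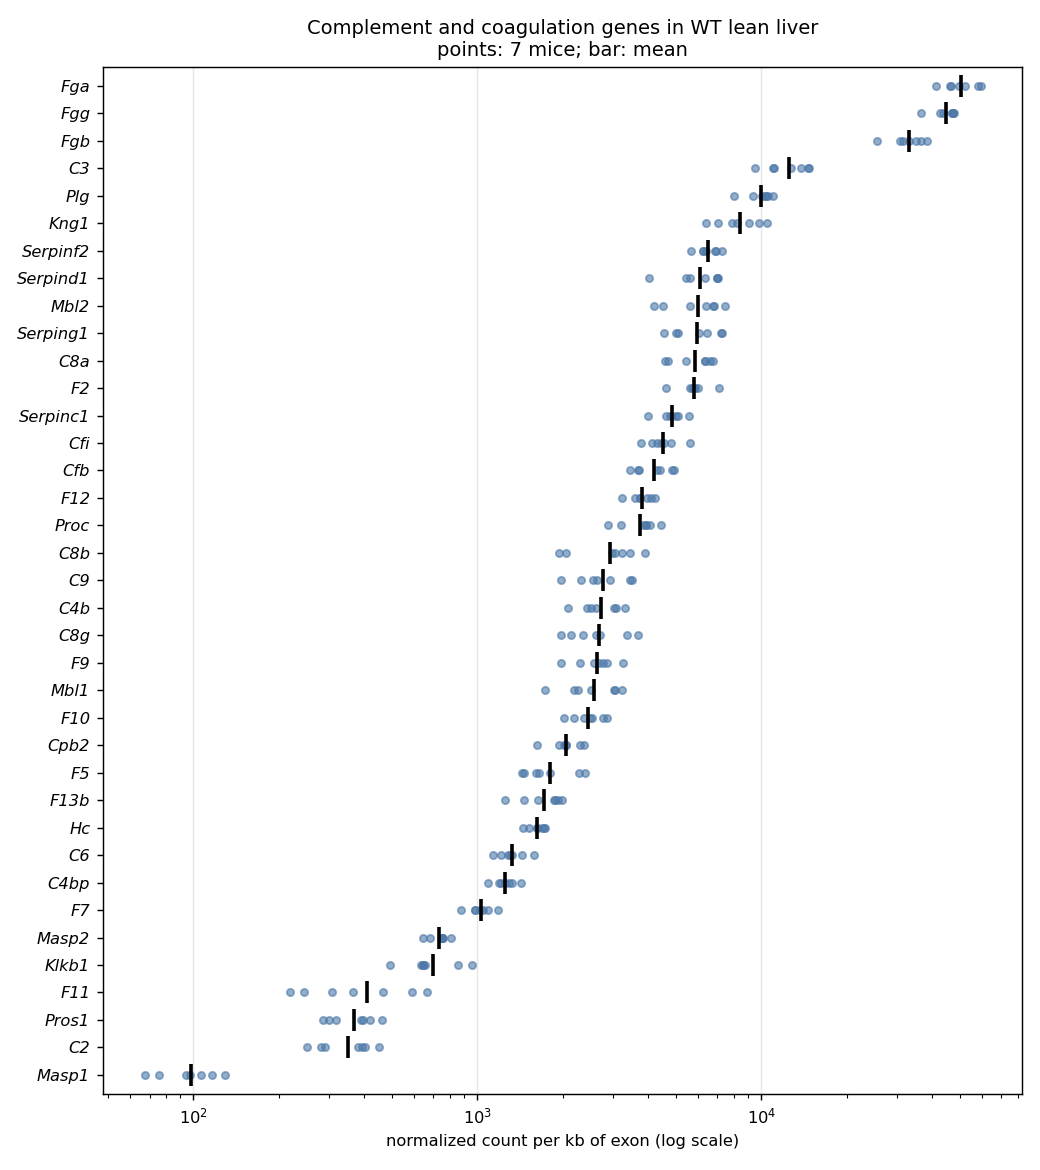
Normalised read count per kb of exon (x axis, log scale) of the 37 members (y axis, ordered by mean) in WT lean liver, with each of 7 mice as a point and the mean as a bar. Fga, Fgg and Fgb stand at the top with means of 50440, 44560 and 33040, and Masp1 at the bottom with 98.0.

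The fibrinogen chains lie next to each other, and so do C8a and C8b, which encode the alpha and beta chains of complement component C8, so the bases upstream of these genes are shown to let the members that stood out below be compared. RefSeq's start sites in GRCm38.p6 were used, and each line gives up to 250 bases before the start, 5′ to 3′ on the gene's strand. The Fga line stops where the GENCODE gene begins, which is before the RefSeq start. Capitals mark matches, on either strand, to the letters TTGCNNAA (C/EBP), TTCNNNGAA (STAT) and CTGGGA (the type 2 interleukin 6 response element).
Fga, chr3:83025903-83026075, plus strand: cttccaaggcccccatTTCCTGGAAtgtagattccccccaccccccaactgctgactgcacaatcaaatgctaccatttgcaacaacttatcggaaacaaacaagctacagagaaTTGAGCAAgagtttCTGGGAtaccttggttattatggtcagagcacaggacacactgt
Fgb, chr3:83049864-83050113, minus strand: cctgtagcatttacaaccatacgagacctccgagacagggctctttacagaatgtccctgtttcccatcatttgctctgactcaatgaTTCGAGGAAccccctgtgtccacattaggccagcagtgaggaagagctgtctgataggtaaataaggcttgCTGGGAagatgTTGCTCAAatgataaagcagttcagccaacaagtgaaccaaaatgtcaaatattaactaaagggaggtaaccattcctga
Fgg, chr3:83007474-83007723, plus strand: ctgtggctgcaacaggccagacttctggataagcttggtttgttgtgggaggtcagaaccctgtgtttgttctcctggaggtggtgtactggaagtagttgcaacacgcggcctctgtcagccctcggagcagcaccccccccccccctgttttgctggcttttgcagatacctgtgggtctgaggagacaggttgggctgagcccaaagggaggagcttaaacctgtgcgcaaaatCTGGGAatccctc
C8a, chr4:104876399-104876648, minus strand: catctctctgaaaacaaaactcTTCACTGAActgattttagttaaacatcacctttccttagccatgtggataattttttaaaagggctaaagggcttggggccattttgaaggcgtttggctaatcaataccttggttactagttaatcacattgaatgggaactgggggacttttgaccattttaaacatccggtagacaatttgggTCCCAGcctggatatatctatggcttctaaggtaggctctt
C8b, chr4:104766067-104766316, plus strand: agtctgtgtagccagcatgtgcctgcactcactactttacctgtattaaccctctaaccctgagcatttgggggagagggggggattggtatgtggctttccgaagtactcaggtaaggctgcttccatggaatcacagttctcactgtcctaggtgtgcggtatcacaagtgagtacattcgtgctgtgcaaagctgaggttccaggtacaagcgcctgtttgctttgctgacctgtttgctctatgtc

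Fga and Fgb held all 3 motifs, whereas Fgg held CTGGGA alone. C8a held the STAT and CTGGGA letters and C8b none of the 3. Of the 28 members with an upstream sequence, 7 (25.0%) held the C/EBP letters, against 9.55% of 27025 genes. The STAT letters were in 6 members (21.4%), against 7.18%, and CTGGGA in 12 (42.9%), against 26.8%. TATAAA was in 2 members (7.14%), Klkb1 and Hc, against 3504 of 27025 genes, and the HNF4 letters CAAAGTCCA were in 0 of 28, against 0.381%. These matches describe letters in a window and not binding. The motifs can overlap each other, and members of a cluster are not independent.

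The WT obese vs WT lean comparison asked what the high fat diet did in mice with the receptor. By limma on log2(normalised count + 1), 0 of 37 members passed a BH-adjusted p-value of 0.1, whereas 6.27% of the 14012 genes tested did. At an unadjusted p under 0.05 there were 5 members (13.5%), against 18.2% of all genes: Fga, Fgb, Fgg, F12 and Masp2. On reads recovered from the tables, DESeq2 called 2 members, Fgg and F12, and edgeR 0, where 9.76% and 6.41% of all genes were called. The median log2 fold change over the members was -0.03, and 0.00 over all genes.

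The fibrinogen chains were 3 of the 5 members with an unadjusted p under 0.05, and Fga had the largest difference of all members. It lay between 60165 and 173768 normalised counts in WT obese, with a median of 90333, and between 123908 and 178198 in WT lean, with a median of 149328. The groups overlapped, with 5 of 7 WT obese mice below the lowest WT lean mouse. Fga gave a log2 fold change of -0.64 (SE 0.24, 95% interval -1.14 to -0.13, adjusted p = 0.161). Fgb gave -0.47 (adjusted p = 0.204) and Fgg -0.53 (adjusted p = 0.122), each also with 5 of 7 WT obese mice below all WT lean mice. Without WT obese replicate 1 the members called were 4, these chains and F12, all lower in WT obese, beside 9.18% of all genes. Without WT obese replicate 3 only Fgg was called.

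Terminal complement spread widely in WT mice, from -0.53 for C6 (SE 0.26, adjusted p = 0.296) and -0.48 for C8b (SE 0.25, adjusted p = 0.336) to 0.25, with 0 of 6 called, so these values were close in size to those of Fgb and Fgg. The convertase components ran from -0.24 to -0.01. In the lectin pathway the log2 fold changes ran from 0.03 to 0.19, in the complement regulators from -0.03 to 0.11 and among the anticoagulants from -0.24 to 0.06. F11, factor XI of the intrinsic pathway, had the highest value at 0.49 (95% interval -0.02 to 0.99, adjusted p = 0.298). For 28 of 37 members the 95% interval lay wholly within a 1.5-fold change in either direction.

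The KO obese vs KO lean comparison asked the same of mice without the receptor. Here 9 of 37 members (24.3%) passed the threshold, and so did 24.1% of the 14213 genes tested, so the members' share was that of the background. F5, Masp1 and F9 were higher in KO obese, 3 members against 12.0% of all genes called higher. Serpinf2, C8b, Mbl1, Serpinc1, F12 and F2 were lower, 6 members against 12.1% of all genes called lower. With a fold change above 1.5 as well, 4 members remained (10.8%), F5, Masp1, C8b and Mbl1, against 10.4% of all genes. The median log2 fold change was -0.08 over the members and -0.00 over all genes, and the median size of the change 0.23 and 0.25.

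Among the clotting factors, F5 encodes factor V, the cofactor with which factor Xa turns prothrombin into thrombin. Its normalised counts ran from 12762 to 19149 in KO obese, with a median of 16031, and from 5300 to 17528 in KO lean, with a median of 7855. All 7 KO obese mice lay above the KO lean median, and 6 of 7 KO lean mice lay below every KO obese mouse. On the log2 scale F5 rose by 0.87 (SE 0.20, adjusted p = 0.0133).

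F9, factor IX, whose loss causes haemophilia B, ran from 8058 to 10261 normalised counts in KO obese (median 9143) and from 6702 to 9057 in KO lean (median 7213). Its groups overlapped, with 5 of 7 KO obese mice above every KO lean mouse. It rose by 0.29 on the log2 scale (SE 0.11, BH-adjusted p = 0.0753). F12, factor XII of the contact pathway, ran from 5725 to 8851 in KO obese (median 6438) and from 7406 to 10106 in KO lean (median 8096). Its groups overlapped too, and it fell by 0.29 (SE 0.11, adjusted p = 0.0898). F2, prothrombin, passed narrowly at -0.33 (SE 0.13, adjusted p = 0.0915), with medians of 26950 in KO obese and 34582 in KO lean. With 1 mouse left out, the calls of F9, F12 and F2 were lost in 9, 10 and 10 of 14 runs, with adjusted p-values up to 0.131, 0.176 and 0.162.

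Of the inhibitors, Serpinf2 encodes alpha 2-antiplasmin, the main inhibitor of plasmin. It lay between 11932 and 20005 normalised counts in KO obese, with a median of 13441, and between 18645 and 25617 in KO lean, with a median of 21571. The groups overlapped through 1 KO obese mouse, and the other 6 were below every KO lean mouse. Serpinf2 fell by 0.58 on the log2 scale (SE 0.14, BH-adjusted p = 0.0159). Serpinc1 encodes antithrombin, which inactivates thrombin and factor Xa. It ran from 32313 to 48342 normalised counts in KO obese (median 35558) and from 46219 to 61773 in KO lean (median 50286). All 7 KO obese mice were below the KO lean median, and the gene fell by 0.46 on the log2 scale (SE 0.14, BH-adjusted p = 0.0361).

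In complement, C8b had the largest change of all members. It ran from 2165 to 9849 normalised counts in KO obese, with a median of 4558, and from 8120 to 15812 in KO lean, with a median of 10622. The groups overlapped, and 5 of 7 KO obese mice were below every KO lean mouse. C8b fell by 1.10 on the log2 scale (SE 0.27, BH-adjusted p = 0.0167). Mbl1 encodes mannose-binding lectin A, which recognises sugars on microbes and starts the lectin pathway. It ran from 2987 to 5881 normalised counts in KO obese (median 4633) and from 4749 to 10121 in KO lean (median 6599). All 7 KO obese mice were below the KO lean median, and Mbl1 fell by 0.59 on the log2 scale (SE 0.17, BH-adjusted p = 0.0328).

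Masp1, a protease that the bound lectin activates, went the other way. It ran from 969 to 1595 normalised counts in KO obese (median 1117) and from 435 to 1284 in KO lean (median 691). All 7 KO obese mice were above the KO lean median, and it rose by 0.61 on the log2 scale (SE 0.20, BH-adjusted p = 0.0484). Without KO obese replicate 7 it was 0.53 (adjusted p = 0.106). Mbl2 and Masp2, the partners of these genes, were not called.

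Among the members that were not called, Cfi, the protease that inactivates C3b and C4b, was just outside the threshold at -0.23 (adjusted p = 0.101). The 4 convertase components C2, C3, C4b and Cfb had log2 fold changes from 0.00 to 0.37, the highest for C4b (adjusted p = 0.145). C4b and C4a are near-identical copies, as are Kng1 and Kng2 in part, so reads may have been split between them. C4a is not a member and was called higher in KO obese, as counted below among the other complement genes. The fibrinogen chains gave -0.07 for Fga, -0.30 for Fgb and -0.21 for Fgg, none called. Between roles, 1 member rose and 1 fell in the contact and intrinsic pathway, in the extrinsic and common pathway and in the lectin pathway alike.

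**Figure D2:**
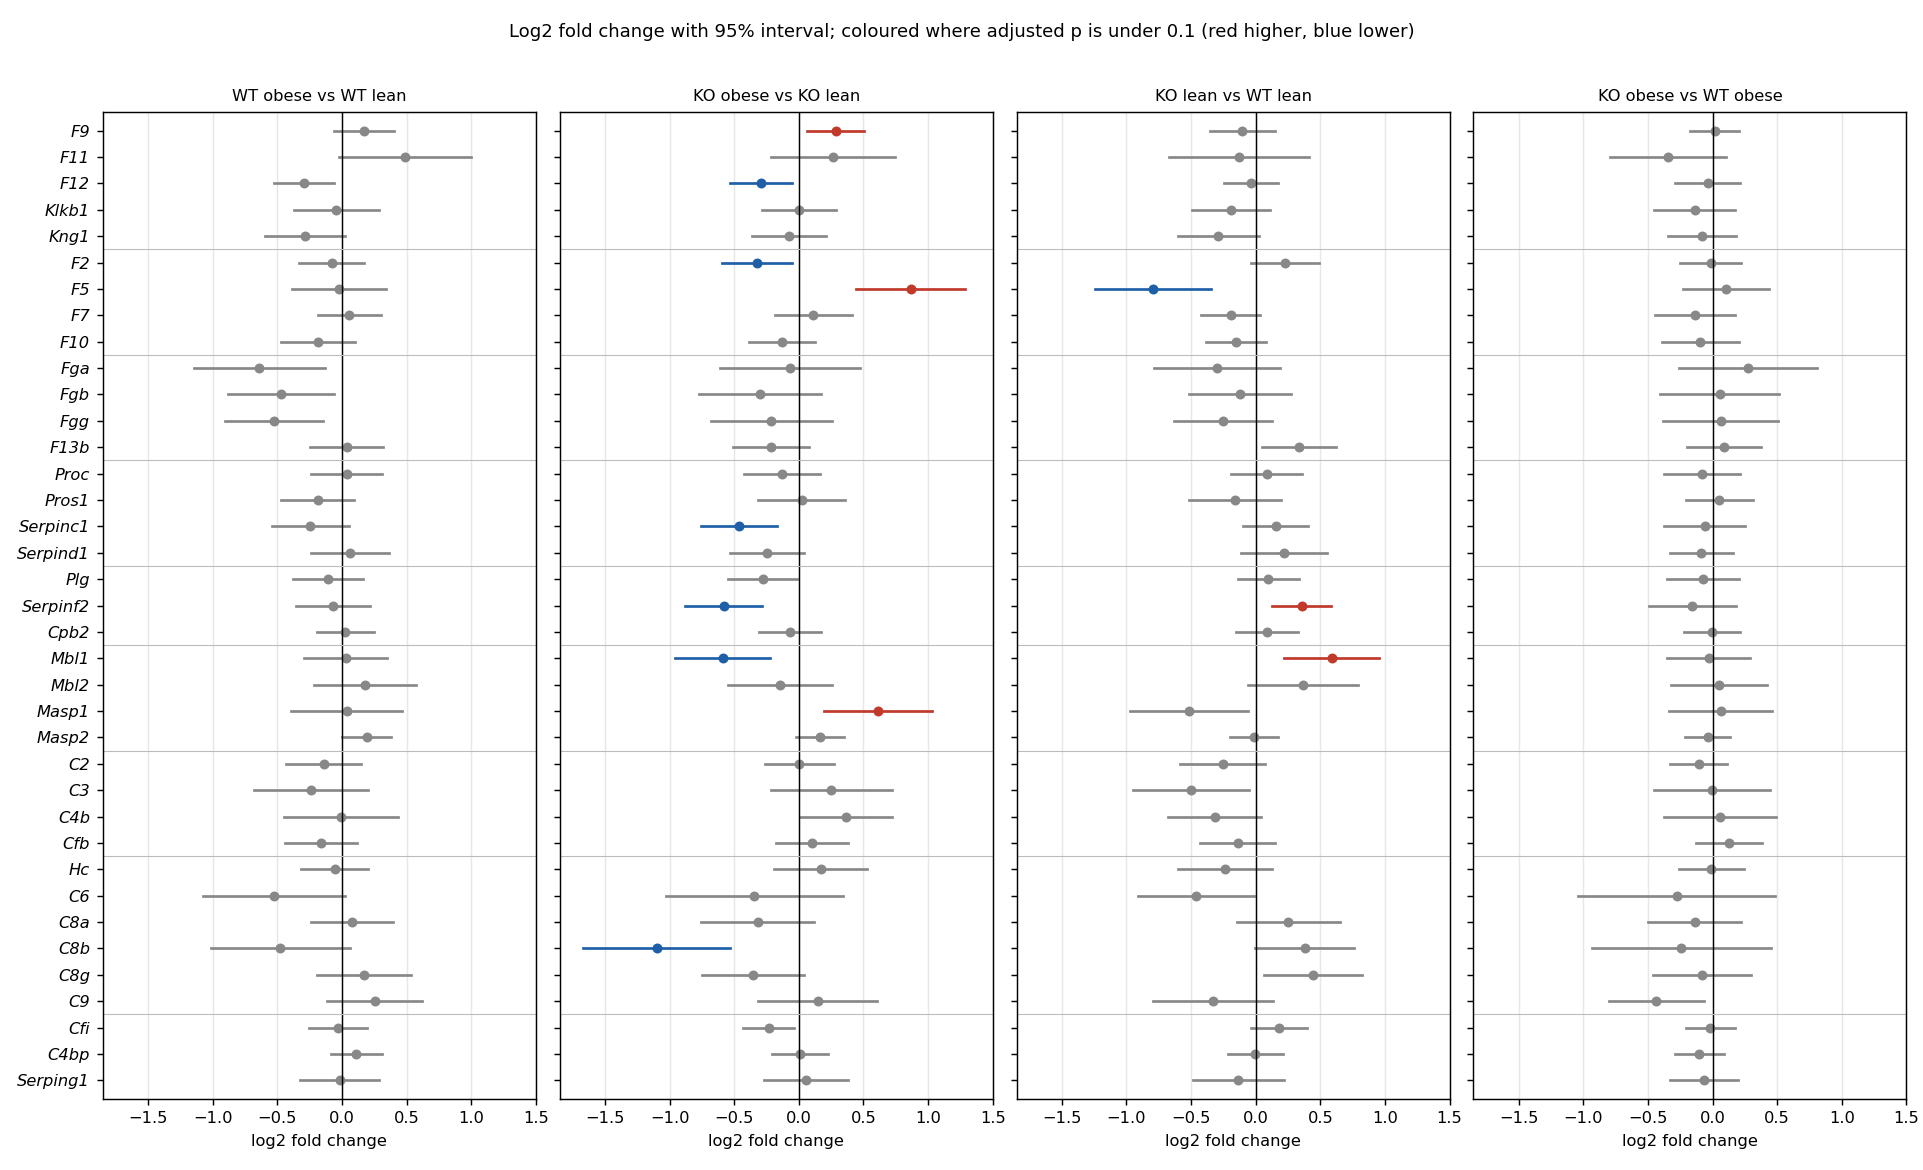
Log2 fold change of each member (points) with its 95% interval (lines) in the diet and genotype comparisons, ordered by role, with red for members called higher and blue for members called lower at an adjusted p under 0.1. KO obese vs KO lean has 9 coloured members, from C8b at -1.10 to F5 at 0.87, KO lean vs WT lean has 3, and WT obese vs WT lean and KO obese vs WT obese have 0.

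The labels give each mouse an identifier that opens with a number, whose meaning they do not state. With it as a random block F5, Serpinf2 and C8b kept their calls in KO obese vs KO lean, and 7.44% of all genes were called. The calls of Mbl1, Serpinc1, Masp1, F9, F2 and F12 were lost, with adjusted p-values from 0.119 for Mbl1 to 0.264 for F12. Scaling and gene length moved with these values. With every library brought to the same read total, the median of all genes became 0.14. Then 22.4% of all genes were called, 2555 higher and 628 lower. Of the members 8 were called, 5 higher and 3 lower, in place of 3 and 6. C8b, F5, Serpinf2, Serpinc1, F9 and Masp1 were called in the same direction under both scalings, while C4b and Masp2 were called higher with equal totals but not with the deposited scaling. Over the members, the log2 fold change and exon length had a Spearman rho of 0.35, and over 14067 genes of 0.30, given here as a description. F5 (7430 bases) and Masp1 (9833 bases) have long exons, and Serpinf2 (2324 bases) and Mbl1 (1570 bases) short ones. After each library was corrected for length and GC content, 7 of the 9 members kept their call, with 0.71 for F5 and -0.43 for Serpinf2. The part of length in the differences was not tested.

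Markers of some other cells moved with the groups. Of 8 Kupffer cell and macrophage markers, 6 were lower in KO obese, and their summed normalised counts ran from 4093 to 5558 in KO obese and from 7323 to 15469 in KO lean without overlap. Of 7 markers of sinusoidal endothelium 4 were lower, and of 7 lymphocyte markers 4 were lower, where 12.1% of all genes were called lower. Of 7 stellate cell and fibroblast markers 1 was lower. Of the neutrophil, platelet, cholangiocyte, erythroid and adipocyte markers 0 were called. The hepatocyte sums overlapped, at 981161 to 1591790 in KO obese and 1036890 to 1452500 in KO lean. The part of these cells in the members' differences was not tested.

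The KO lean vs WT lean comparison asked what loss of the receptor did on the lean diet. Here 3 of 37 members (8.11%) were called, against 16.3% of the 13031 genes tested. Mbl1 and Serpinf2 were higher in KO lean, against 8.00% of all genes, and F5 was lower, against 8.30%. With a fold change above 1.5, F5 and Mbl1 remained (5.41%), against 6.65% of all genes. The median log2 fold change was -0.12 over the members and -0.00 over all genes. The 7 KO lean mice were the same as in KO obese vs KO lean, so the values of the pair of comparisons are not independent of each other.

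F5 ran from 4806 to 15969 normalised counts in KO lean, with a median of 7127, and from 11062 to 18499 in WT lean, with a median of 12730. The groups overlapped through 1 KO lean mouse, and the other 6 were below every WT lean mouse. F5 fell by 0.79 on the log2 scale (SE 0.21, BH-adjusted p = 0.0451), beside 0.87 in KO obese vs KO lean. Mbl1 ran from 4327 to 9185 normalised counts in KO lean (median 5984) and from 2815 to 5292 in WT lean (median 4098). Its groups overlapped, with 5 of 7 KO lean mice above every WT lean mouse. Its rise was 0.59 on the log2 scale (SE 0.17, BH-adjusted p = 0.0547), beside -0.59 in KO obese vs KO lean.

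Serpinf2 ran from 16986 to 23228 normalised counts in KO lean (median 19606) and from 13618 to 17571 in WT lean (median 15436). The groups overlapped, with 6 of 7 KO lean mice above every WT lean mouse. Its rise was 0.35 on the log2 scale (SE 0.11, BH-adjusted p = 0.0564), beside -0.58 in KO obese vs KO lean. Wdr81 lies next to Serpinf2, and the strand setting of the counting is not given in the sources used here, so reads of overlapping genes could not be told apart. Its median of 1314 normalised counts was far below the 17280 of Serpinf2.

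Members that were not called included Masp1 at -0.52 (adjusted p = 0.136), C3 at -0.50 (adjusted p = 0.145) and C8g, the gamma chain of C8, at 0.44 (adjusted p = 0.127). All 4 convertase components were below 0, from -0.50 to -0.14, with 0 of 4 called. C3 ran from 31219 to 93681 normalised counts in KO lean (median 44340) and from 51116 to 78538 in WT lean (median 67920). Its KO lean group held both the lowest and the highest mouse of the comparison.

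These calls rested on few mice. When the number in the mouse identifier entered as a random block, 0 members and 0.0230% of all genes were called in KO lean vs WT lean, with adjusted p-values of 0.146 for F5, 0.152 for Mbl1 and 0.157 for Serpinf2. Without WT lean replicate 5 the count of members called was 0, beside 4.39% of all genes. Without KO lean replicate 6 or WT lean replicate 2 it was 1 (F5), and without KO lean replicate 4 it was 2 (F5 and Mbl1). It was 6 without KO lean replicate 1. Without KO lean replicate 5 it was 12, beside 27.2% of all genes. F5, Mbl1 and Serpinf2 were among the members called in both cases. With equal read totals the median of all genes became -0.12 and 5 members were called, 0 higher and 5 lower: F5, Masp1, C3, Kng1 and F7. F5 was thus called lower, and Serpinf2 and Mbl1 gave 0.24 and 0.47 without being called. Log2 fold change and exon length had a Spearman rho of -0.49 over the members and -0.34 over 12920 genes. Of 8 Kupffer cell and macrophage markers 7 were higher, against 8.00% of all genes. Their summed counts were 6644 to 14027 in KO lean and 2742 to 6289 in WT lean. The part of exon length and of these cells in the differences was not tested.

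**Figure D3:**
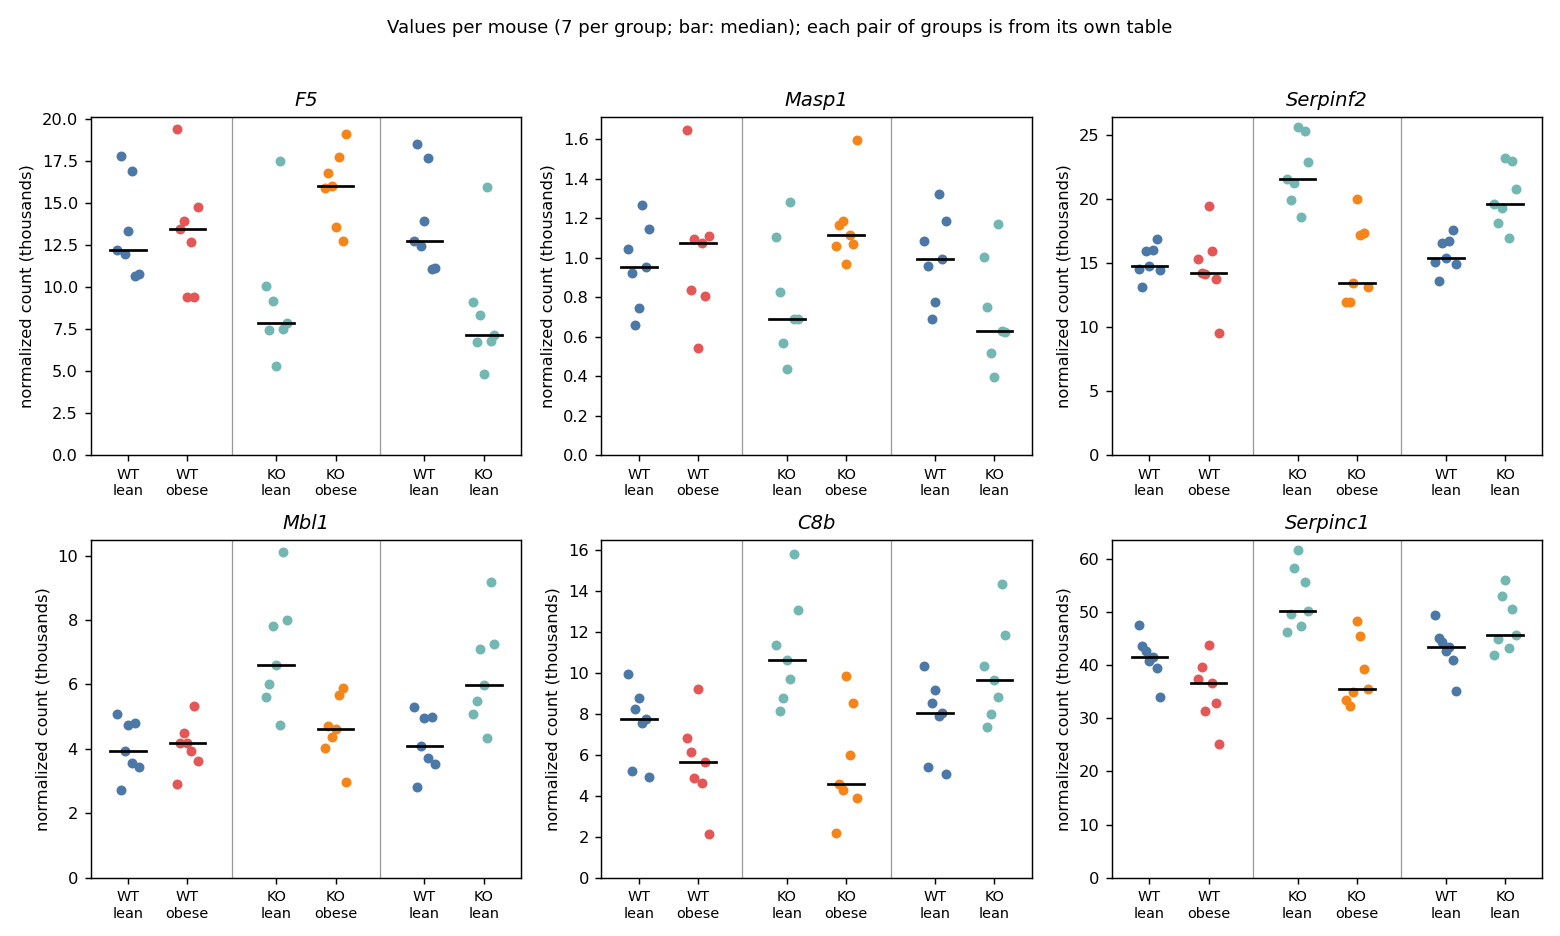
Normalised read count (linear axis from 0) of F5, Masp1, Serpinf2, Mbl1, C8b and Serpinc1 in each mouse for WT obese vs WT lean, KO obese vs KO lean and KO lean vs WT lean, with the group median as a line; values are comparable within a comparison only. In KO obese vs KO lean all 7 KO obese mice lie above the KO lean median for F5 and Masp1 and below it for the other 4.

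Whether the effect of diet differed between genotypes was tested directly, as the difference of the 2 log2 fold changes over 28 libraries. By limma 0 of 37 members passed, against 0.00718% of the 13924 genes tested (1 gene). At an unadjusted p under 0.05 there were 3 members (8.11%), against 18.3% of all genes. F5 gave a difference, KO minus WT, of 0.89 (95% interval 0.34 to 1.45, adjusted p = 0.141), Serpinf2 of -0.51 (-0.90 to -0.13, adjusted p = 0.165) and Mbl1 of -0.62 (-1.10 to -0.13, adjusted p = 0.174). The members called in KO obese vs KO lean were therefore not shown to respond otherwise in WT mice. DESeq2 on the recovered reads called 2 members, F5 and Serpinf2, beside 6.65% of all genes, and edgeR 0, beside 0.00718%. Without KO lean replicate 5 the same 3 members were called, beside 13.3% of all genes. Without WT obese replicate 1 F5 and Mbl1 were called, beside 6.92% of all genes. C8b gave -0.62 (-1.42 to 0.18, adjusted p = 0.408). Over the members the difference and exon length had a Spearman rho of 0.50, and of 0.35 over 13806 genes.

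The KO obese vs WT obese comparison asked what loss of the receptor did on the high fat diet. By limma 0 of 37 members were called, against 0.0141% of 14162 genes (2 genes), and DESeq2 and edgeR on the recovered reads also called 0. At an unadjusted p under 0.05 there was 1 member, C9, the last component of the membrane attack complex, and 319 genes in all. C9 ran from 4800 to 9124 normalised counts in KO obese (median 6772) and from 5830 to 12088 in WT obese (median 10206). Its groups overlapped, with a difference of -0.44 on the log2 scale (SE 0.17, 95% interval -0.80 to -0.07, adjusted p = 0.9999). For 32 of 37 members the 95% interval lay within a 1.5-fold change and for 36 within a 2-fold change. The widest interval was that of C6, from -1.04 to 0.48. All 6 terminal components were below 0, from -0.44 to -0.01, and 0 of 6 were called.

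RvE1 was compared with vehicle in obese mice of each genotype. In WT obese+RvE1 vs WT obese, 0 of 37 members and 0% of 13085 genes were called by limma, with 4 members and 795 genes at an unadjusted p under 0.05, and DESeq2 and edgeR also called 0 members. The 4 members were C6, C8a and C9 of the membrane attack complex and F11, all with lower values after RvE1. C6 had the largest difference. It ran from 1369 to 2876 normalised counts with RvE1 (median 2312) and from 1698 to 7170 with vehicle (median 3221). Its groups overlapped, with 5 of 7 vehicle mice above every RvE1 mouse, and the difference was -0.79 on the log2 scale (SE 0.28, 95% interval -1.39 to -0.19, adjusted p = 0.772). C9 ran from 5454 to 8403 with RvE1 (median 6233) and from 6218 to 12918 with vehicle (median 10886), with a log2 fold change of -0.58 (95% interval -0.92 to -0.24, adjusted p = 0.772). All 6 terminal components had values below 0, from -0.79 to -0.03, and 0 of 6 were called. The 7 WT obese mice were the same as in KO obese vs WT obese and in WT obese vs WT lean, where C9 gave 0.25. The values of these comparisons, those of C9 and C6 among them, are therefore not independent of each other.

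In KO obese+RvE1 vs KO obese, 0 of 37 members and 0% of 14207 genes were called by limma, with 0 members and 1179 genes at an unadjusted p under 0.05, and 0 members by DESeq2 and edgeR. C6 again had the largest difference. It ran from 1020 to 4012 normalised counts with RvE1 (median 2081) and from 1228 to 6134 with vehicle (median 3497), with overlapping groups and a difference of -0.64 on the log2 scale (SE 0.36, 95% interval -1.40 to 0.12, adjusted p = 0.611). C9 gave -0.18 and F11 0.08. All 6 terminal components were below 0 in this comparison too, from -0.64 to -0.12, and 0 of 6 were called. The 7 KO obese mice were also those of KO obese vs KO lean and KO obese vs WT obese. The widest interval was that of C8b, from -1.39 to 0.69.

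The effect of RvE1 was also compared between genotypes, and 0 of 37 members and 0% of 13059 genes passed by limma, with 0 members and 311 genes at an unadjusted p under 0.05 and 0 members by DESeq2 and edgeR. The largest difference among the members, KO minus WT, was 0.52 for F11 (95% interval -0.03 to 1.08, adjusted p = 0.9999). With RvE1, 29 of 37 members in each genotype had intervals within a 1.5-fold change and 35 within a 2-fold change, and the 2 members outside were C6 and C8b in both genotypes.

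**Figure D4:**
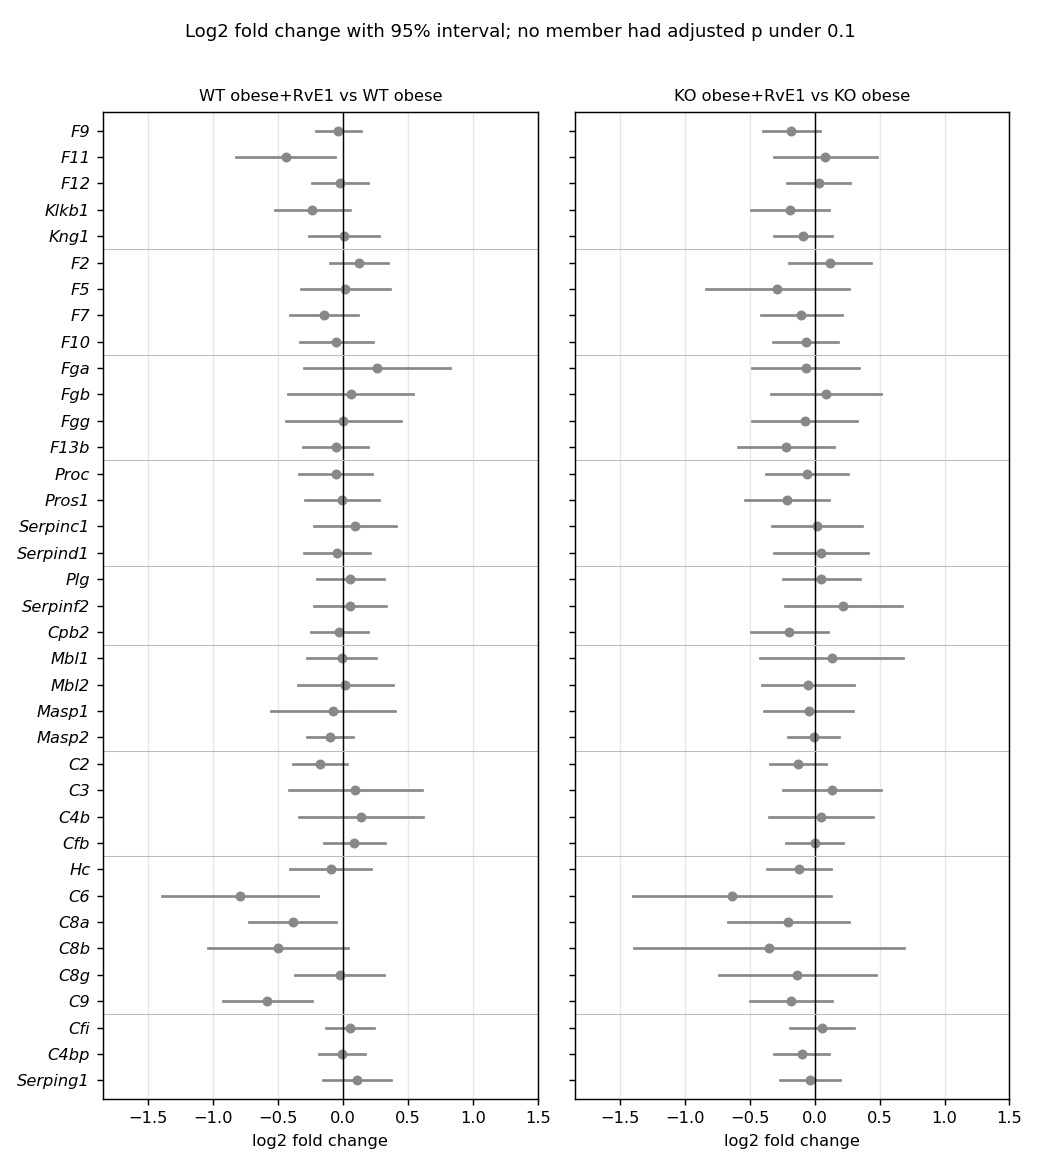
Log2 fold change of each member (points) with its 95% interval (lines) for RvE1 against vehicle in WT obese and KO obese mice, ordered by role. No member is coloured as called, the lowest value in both panels is C6, at -0.79 and -0.64, and the widest interval is that of C8b in the KO panel.

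Subunits of 1 complex are made as separate transcripts, and the ratio of their reads per kb within a library does not depend on how libraries are scaled. A set of 8 ratios was compared in 6 comparisons by two-sided exact permutation tests, with BH-adjusted p-values over the 48 tests and a smallest possible p of 0.000583. The ratios were picked after the data were seen. The tests treated the mice of a group as exchangeable, and the identifier number was neither blocked nor left out for the ratios. Of the 48 tests, 4 passed an adjusted p of 0.1, and 3 of these concerned C8 and the diet. All 3 held C8b. In WT obese vs WT lean, C8a over C8b and C8b over C8g came from the same mice, so these passes are not independent of each other.

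The ratio of C8a to C8b was 1.62 to 2.37 in WT lean and 2.34 to 5.76 in WT obese, with medians of 1.96 and 2.58. The groups overlapped, with 6 of 7 WT obese mice above every WT lean mouse, and the ratio was 1.47-fold higher in WT obese (exact permutation adjusted p = 0.0280). In KO mice the ratio was 1.33 to 2.58 on the lean diet and 2.12 to 5.57 on the high fat diet, with medians of 1.72 and 3.08. Here 5 of 7 KO obese mice lay above every KO lean mouse, and the ratio was 1.72-fold higher (exact permutation adjusted p = 0.0490). The 2 diet comparisons share no mice. C8b itself gave -0.48 (adjusted p = 0.336) in WT and -1.10 in KO mice, and C8a 0.08 and -0.32, neither called. The difference in the ratio passed in both genotypes with any 1 mouse left out, with adjusted p-values up to 0.0490 in WT and 0.0839 in KO mice. In these runs only the p-value of that test was computed anew, and the other tests kept every mouse.

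The ratio of C8b to C8g was 1.57-fold lower in WT obese than in WT lean (log2 difference -0.65, exact permutation adjusted p = 0.0490). It ran from 0.426 to 1.11 in WT obese and from 0.901 to 1.26 in WT lean, with 6 of 7 WT obese mice below every WT lean mouse, and the adjusted p reached 0.105 without WT lean replicate 1, 3, 5 or 6. In KO mice the log2 difference was -0.74 (adjusted p = 0.131). The ratio of C8a to C8g was 1.07-fold lower in WT obese (adjusted p = 0.768) and 1.03-fold higher in KO obese (adjusted p = 0.921). Genotype on the same diet left the ratio of C8a to C8b at 1.09-fold lower in KO lean and 1.07-fold higher in KO obese, with adjusted p-values of 0.710 and 0.822.

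Of the fibrinogen chains, Fgb and Fgg moved most closely together across mice. Over all 42 mice the share of reads on the 3 chains varied 3.15-fold, whereas the ratio of Fgb to Fgg varied 1.40-fold, from 0.664 to 0.930. Fga followed them less closely, and its ratio varied 1.87-fold to Fgb and 2.23-fold to Fgg. The ratio was 0.749 to 0.808 in KO obese and 0.788 to 0.930 in KO obese+RvE1. Of the RvE1 mice 6 of 7 lay above every vehicle mouse, and the ratio was 1.12-fold higher (exact permutation adjusted p = 0.0280). In WT obese+RvE1 vs WT obese it was 1.04-fold higher (adjusted p = 0.542), and the difference between genotypes was not tested. The ratios of Mbl1 to Mbl2 and of Masp1 to Masp2 passed in 0 of 6 comparisons each.

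**Figure D5:**
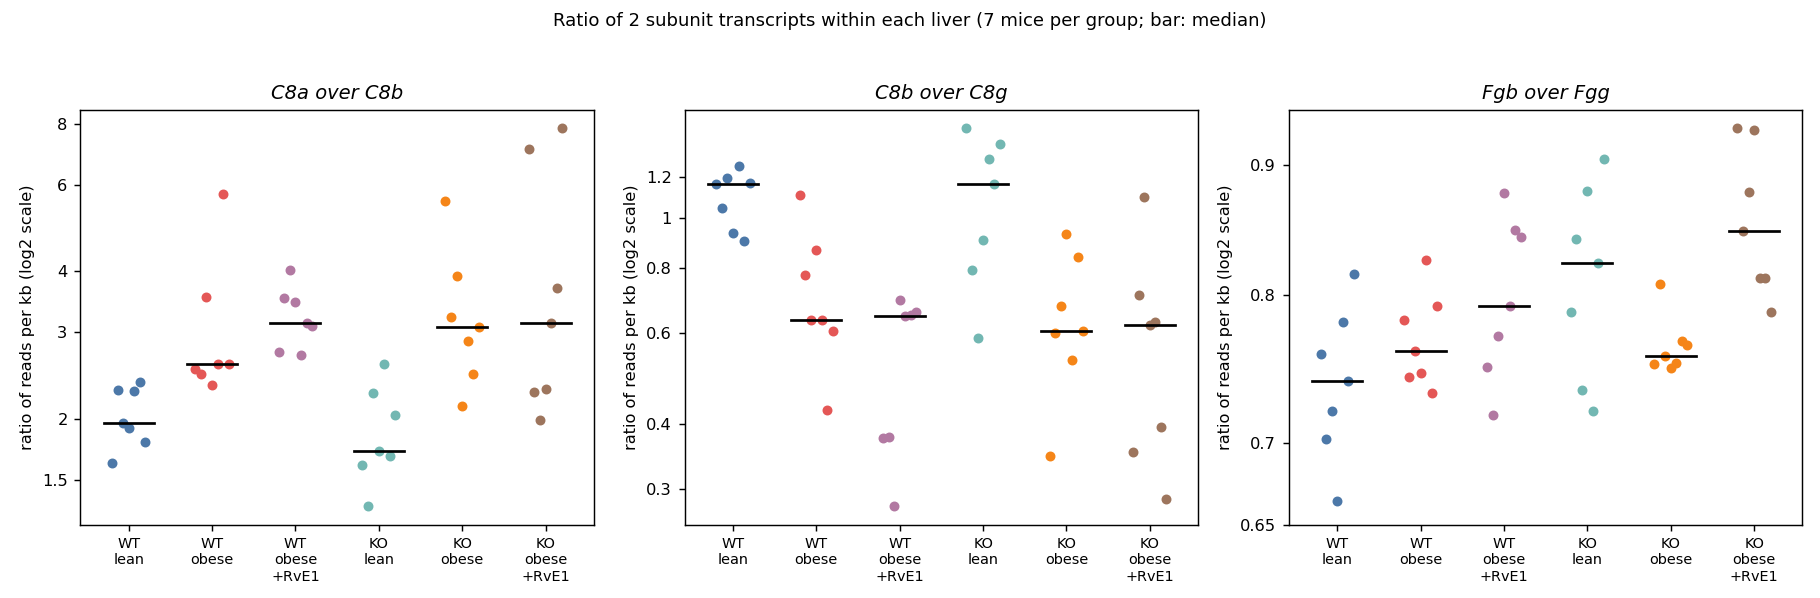
Ratios C8a over C8b, C8b over C8g and Fgb over Fgg in each mouse of the 6 groups, as ratios of reads per kb on log axes, with the group median as a line. C8a over C8b has medians of 1.96 and 1.72 in the lean groups and 2.58 and 3.08 in the obese groups given vehicle, and Fgb over Fgg has medians of 0.757 in KO obese and 0.848 in KO obese+RvE1.

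The members not yet described by their own values were called in 0 of the 6 comparisons. F13b, the carrier subunit of factor XIII, which crosslinks fibrin, came nearest to the threshold among them, at 0.33 in KO lean vs WT lean (SE 0.13, adjusted p = 0.123). Plg gave -0.28 in KO obese vs KO lean (SE 0.13, adjusted p = 0.142). Serpind1, heparin cofactor II, a thrombin inhibitor, ran from -0.25 in KO obese vs KO lean to 0.22 in KO lean vs WT lean. Kng1, kininogen of the contact pathway, ran from -0.29 in KO lean vs WT lean to 0.01 in WT obese+RvE1 vs WT obese. Hc, complement component C5, from which the membrane attack complex starts, ran from -0.24 in KO lean vs WT lean to 0.17 in KO obese vs KO lean. Proc, protein C, ran from -0.13 to 0.08 and Serping1, the C1 inhibitor, from -0.14 to 0.11 over the 6 comparisons. F10, factor X, was below 0 throughout, from -0.19 in WT obese vs WT lean to -0.05 in WT obese+RvE1 vs WT obese. For each of these 8 genes the log2 fold changes over the comparisons stayed within a 1.5-fold change in either direction.

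Members differed in how much mice of 1 group varied. Cfi, C4bp, the gene of the C4b-binding protein that restrains the classical pathway, and Masp2 were the most even, with a median SD over the 6 groups of 0.12, 0.12 and 0.13 on the log2 scale. C6 was the least even at 0.67, followed by C8b at 0.52, F11 at 0.42 and Masp1 at 0.42. Within a group the highest mouse had a median of 3.53 times the lowest for C6 and 1.29 times for Cfi. In each of the 6 groups the median SD of the members lay below that of all genes, for example 0.30 against 0.33 in KO lean. The genes were not matched for level, and all 37 members lay above the median gene per kb in WT lean liver.

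The remaining genes of these systems were read from lists of known members. Of 33 other complement genes tested in WT obese vs WT lean, 2 rose and 2 fell, where 6.27% of all genes were called. Cfd, factor D, which cleaves factor B and is known from fat cells, rose 20.3-fold (adjusted p = 1.76e-05), and its groups did not overlap. Cd59a, which blocks assembly of the membrane attack complex, rose 1.55-fold (adjusted p = 0.00692). Of 33 other coagulation and fibrinolysis genes 0 were called by limma.

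In KO obese vs KO lean, 4 of 33 other complement genes rose and 9 fell, where 12.0% of all genes rose and 12.1% fell. C1qa and C1qb, chains of C1q, fell by 0.89 and 0.96 on the log2 scale, Cfp, properdin, by 0.91 and Vsig4, a complement receptor of Kupffer cells, by 0.73, with adjusted p-values from 0.00348 to 0.00694. These genes are known from macrophages, and Vsig4 is also among the macrophage markers counted above. Of 33 other coagulation genes 4 rose and 2 fell. In KO lean vs WT lean 9 of 32 other complement genes rose and 0 fell, where 8.00% of all genes rose and 8.30% fell, with 1.01 for C1qa and 1.17 for C1qb, and of 31 other coagulation genes 1 rose and 3 fell. Mug2, a murinoglobulin that traps proteases, rose by 0.82 in KO obese vs KO lean and fell by 0.70 in KO lean vs WT lean.

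Of 17 regulators of hepatocyte secretory genes, 0 were called in WT obese vs WT lean. In KO obese vs KO lean, Nr1h4 and Il6ra rose and Cebpa fell. Il6ra, the interleukin 6 receptor, rose 2.47-fold (adjusted p = 0.0209), and Cebpa, a C/EBP factor, fell 1.75-fold (adjusted p = 0.00640). In KO lean vs WT lean Cebpa rose 1.61-fold and Onecut1, the factor HNF6, fell 2.98-fold. Of 18 acute phase genes 3 rose in WT obese vs WT lean (Saa3, Saa4 and Orm3), 8 rose and 2 fell in KO obese vs KO lean, and 3 rose and 1 fell in KO lean vs WT lean. Of all genes 6.27%, 24.1% and 16.3% were called in these 3 comparisons, so the counts cannot be set against each other directly. None of these lists had a gene called by limma in KO obese vs WT obese, in either RvE1 comparison or in the interactions.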

How the data were processed

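Livers of 42 mice (7 per group, 1 library each) were sequenced with a TruSeq stranded kit on a NovaSeq instrument. The authors aligned read pairs to mm10 with Bowtie2, counted pairs per gene with featureCounts (both ends mapped) and ran DESeq2 on the 14 libraries of each comparison. Which tool versions, gene annotation and strand setting they used is not given in the sources used here. The deposited signal values are counts divided by a DESeq2 size factor, so groups were compared within a table only. The deposited columns of log2 fold changes, their standard errors, test statistics (a score) and each p-value and adjusted p-value of the authors' own comparisons were not used.

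Whole reads were recovered from the values: 100% were whole within 0.1 reads. The lowest library had 15992556 reads and the highest 43841273, and the depth limits rare transcripts rather than these genes. In no group did 2 libraries agree within sampling noise. Nothing in the labels says how littermates or cages were spread over groups. The p-values set group differences against the spread between these mice and take the mice as independent. Mice that share an identifier number had a consensus correlation from 0.064 to 0.373 over the comparisons, so these p-values may be too small.

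Values were tested as log2(value + 1) with limma 3.58.1 in R 4.3.3 (lmFit and a moderated two-sided test with a trend in the variance). Genes entered with a mean of at least 5 and p-values were BH-adjusted over all of them. The threshold was an adjusted p of 0.1, and members past a 1.5-fold change were counted beside it. Interactions were contrasts of the 2 fold changes. The code was tested on simulated data. Alternatives were pseudocounts of 0.5 and 4, no filter, TMM scaling, equal read totals, a loess correction for length and GC content (span 0.3), quality weights, a random block, edgeR 4.0.16, DESeq2 1.42.0 and mice left out. Exon lengths came from GENCODE vM21 on GRCm38, in which 98.5% of names matched, and upstream sequences from RefSeq's GRCm38.p6 table, which held 28 of the members.

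Full statistics are given for members called, at most the 8 with the smallest p, or for the largest change where none was called, and other genes of the lists are named where the fold change was above 1.5, at most 4 per list and comparison. The members and lists were chosen with earlier results of these data known. An item of a list is not reported here.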

Additional observations from a re-analysis of the deposited data

Results flagged for a closer look

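Among 222 groups of 7 values (37 members in 6 groups), 8 had a mouse whose gap to the others exceeded Dixon's 95% critical value. Chance flags about 1 in 20 such groups. The 8 values came from 8 different mice. Fgg was 76441.4 normalised counts in the lowest WT lean mouse, against 89360 to 99822 in the other 6. F2 was 20399 in the lowest WT obese mouse, against 24823 to 27651, and 47229.9 in the highest KO lean mouse, against 31046 to 35551. Cfi was 11877.3 in the highest WT obese mouse, against 8806 to 9618. C8a was 15390.7 in the lowest KO lean mouse, against 26102 to 37876. Masp1 was 1594.67 in the highest KO obese mouse, against 969 to 1185, and this mouse decided the call of Masp1 in KO obese vs KO lean. Klkb1, plasma prekallikrein, was 4754.01 in the highest WT obese+RvE1 mouse, against 2862 to 3547. Fga was 83637.5 in the lowest KO obese+RvE1 mouse, against 123839 to 161420.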

How the results depend on the processing

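No called member changed direction under any alternative. In WT obese vs WT lean 0 members were called, and 2 with DESeq2 and 2 with quality weights, beside 9.76% and 11.5% of all genes. The count was 0 to 4 with 1 mouse left out and 1 without the mice whose identifier opens with 8. In KO obese vs KO lean the 9 became 15 with quality weights, beside 40.4% of all genes. They became 3 (F5, C8b and Serpinf2) with identifier number as a random block, beside 7.44%. The count was 4 with the fold line and 6 to 10 with 1 mouse left out. It was 2, 4 and 3 without identifier numbers 10, 31 and 9. In KO lean vs WT lean the 3 became 5 with DESeq2 and 5 with equal read totals, beside 19.8% and 16.5% of all genes. They became 10 with quality weights, beside 33.0%, and 0 with the random block, beside 0.023%. The count was 1 at an adjusted p under 0.05 and 0 to 12 with 1 mouse left out. Of all genes 4.39% were called without WT lean replicate 5 and 27.2% without KO lean replicate 5. It was 6 without identifier number 20 and 0 without 21, 26 or 9. In WT obese+RvE1 vs WT obese 2 members, C6 and C9, were called without identifier number 6. The diet by genotype interaction gave 2 with DESeq2 and 3 with quality weights, beside 6.65% and 18.4% of all genes. It gave 0 to 3 with 1 mouse left out and 1 without identifier number 20. KO obese vs WT obese, KO obese+RvE1 vs KO obese and the RvE1 by genotype interaction stayed at 0 under each alternative run. The causes were not tested.

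What the identifier number stands for is not in the labels, and its mice mostly share a group, so it and the group cannot be told apart. No paired analysis was possible because replicate numbers only follow the order of the samples. C8b and F5 in KO obese vs KO lean kept their call under each alternative run. At this depth counting error is small, and the 7 mice per group limit the precision.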
